A study of Mus musculus with 2 samples.

Results

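Macrophages control the iron that microbes can reach, and 9 genes of that system were followed here in RAW264.7, a macrophage-like cell line from a mouse tumour. The genes were taken by symbol from the deposited table of 54532 genes, and all 9 were found once each: Lcn2, Fth1, Ftl1, Tfrc, Steap3, Steap4, Slc11a1, Slc40a1 and Ireb2. RNA sequencing was run on 2 libraries of RAW264.7 cells, 1 labelled RNF138 knockout and 1 labelled wild type. Both cultures had received lipopolysaccharide (LPS), the bacterial outer membrane component sensed by Toll-like receptor 4, for 3 h at 100 ng/ml. The series title places the work on late inflammatory gene transcription. How the knockout was made, and whether it is a single clone, the labels do not say. RAW264.7 cells derive from a BALB/c mouse, a strain whose Slc11a1 allele encodes a non-functional transporter.

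Iron handling in a macrophage runs along a short chain. Transferrin-bound iron enters through the transferrin receptor, is reduced in the endosome by STEAP reductases, is stored in ferritin cages of heavy and light subunits, and leaves the cell through ferroportin, the product of Slc40a1. During infection macrophages withhold iron. Lipocalin-2 (Lcn2) binds bacterial siderophores, and the phagosomal metal transporter of Slc11a1 draws divalent metals out of the compartment that holds the microbe. Iron regulatory proteins, 1 of which is encoded by Ireb2, bind hairpins called iron-responsive elements (IREs). Bound in a 5′ untranslated region (UTR) they block translation, and bound in a 3′ UTR they protect the transcript from decay, so a read count can reflect the second action directly but not the first.

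The IREs are shown because they divide the 9 genes into those that carry such a hairpin and those without a match. A script searched all GENCODE M21 protein-coding transcripts for the IRE core, a C, then 5 bases, then the loop CAGTGN or its CAGAGN form with a last base other than G, then 5 bases that pair with the first 5 (G with T allowed). A match lay in a UTR in 4 of the 9 genes, beside 1.11% of 21901 protein-coding genes. Fth1, Ftl1 and Slc40a1 each had 1 match in the 5′ UTR, and Tfrc had 5 in the 3′ UTR. In the following 29-base stretches, written 5′ to 3′ as DNA on the transcribed strand, capitals mark the loop. On GRCm38 they lie at chr19:9982732-9982760 (Fth1, plus strand), chr7:45459779-45459807 (Ftl1, minus strand), chr1:45925465-45925493 (Slc40a1, minus strand), and, for Tfrc on the plus strand, at chr16:32631160-32631188, chr16:32631219-32631247, chr16:32631598-32631626, chr16:32631663-32631691 and chr16:32631710-32631738.
Fth1: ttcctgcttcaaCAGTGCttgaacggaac
Ftl1: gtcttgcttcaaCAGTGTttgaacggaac
Slc40a1: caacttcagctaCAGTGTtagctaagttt
Tfrc site 1: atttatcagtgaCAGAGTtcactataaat
Tfrc site 2: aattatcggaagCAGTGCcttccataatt
Tfrc site 3: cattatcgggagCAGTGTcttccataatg
Tfrc site 4: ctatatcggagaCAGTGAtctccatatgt
Tfrc site 5: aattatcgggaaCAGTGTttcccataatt
Lcn2, Slc11a1, Steap3, Steap4 and Ireb2 had no match of this form in a UTR.

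The labelled-knockout library held 19032311 counts and the labelled-wild-type library 15573989. Levels are given as CPM, the counts per 1000000 of the library total scaled by trimmed mean of M-values (TMM), or, for comparing genes, as the authors' FPKM, which is scaled by gene length. With 1 library per group no difference has a replicate check, so no test of the conditions was made, and the 95% intervals (exact Poisson for CPM, exact binomial for a ratio) cover counting error only. PCR copies were not marked with molecular identifiers, so counts are not independent molecules. A gene was called measured at a mean count of at least 10, and past the size rule where the libraries also differed at least 2-fold with an interval excluding 1. Rnf138, the targeted gene, was more abundant in the labelled-knockout library (252 CPM, against 38.4 CPM in the labelled-wild-type library). This is the reverse of what a loss of the transcript would give. Since the labels do not say how the knockout was made, this gene cannot settle whether they are right. The libraries are therefore called the labelled-knockout and the labelled-wild-type library, and every direction rests on those labels.

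Of the 9 genes, 8 were measured, and 3 of these were past the size rule: Lcn2 was higher in the labelled-knockout library, and Slc11a1 and Slc40a1 were lower. The other 5 measured genes were not past the rule, and Steap4 had no counts. Of all 12668 measured genes, 10.2% were past the rule, 6.54% higher and 3.62% lower. Ratios are those of the labelled-knockout library over the labelled-wild-type library. Their median on the log2 scale was -0.38 for the 8 genes and 0.02 for all measured genes. The 9 genes were chosen with earlier results of these data known, so these shares and medians are description and not a test. Of the 8 genes, 2 had a ratio above 1 and 6 had a ratio below 1.

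**Figure D1:**
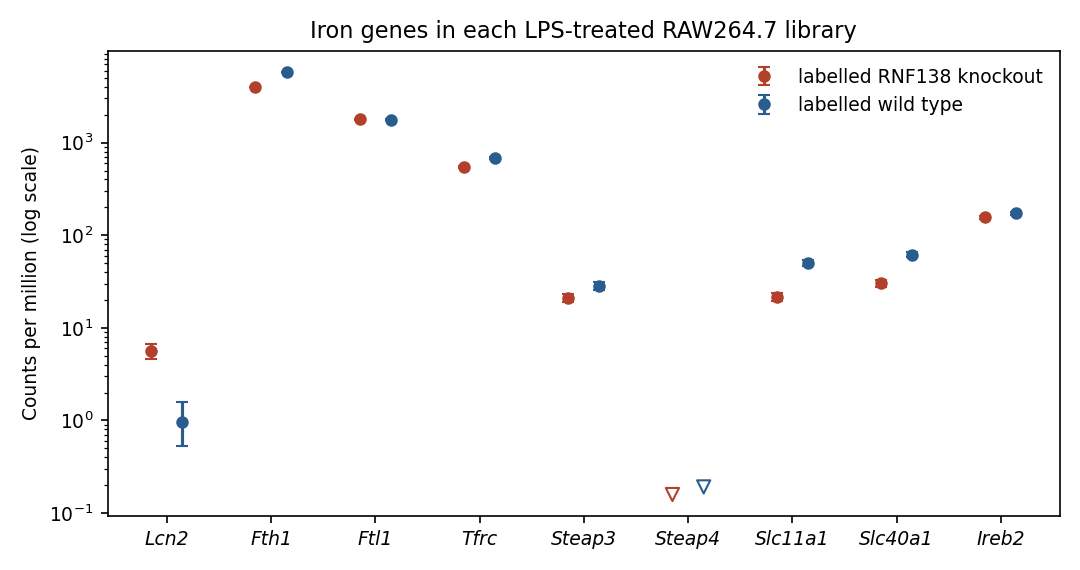
CPM (log scale) of the 9 iron genes in the labelled-knockout library (left point of each pair) and the labelled-wild-type library (right point). Bars are exact 95% Poisson intervals. Open triangles mark a limit of 3 counts for Steap4, which had 0 counts, and are not the ends of such intervals. Lcn2 stands higher on the left, and Slc11a1 and Slc40a1 stand higher on the right.

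Lcn2 encodes the secreted protein that captures the siderophores with which bacteria collect iron. The gene (ENSMUSG00000026822, GRCm38 chromosome 2, 32384633 to 32388252, minus strand) had 106 counts, or 5.60 CPM (4.58 to 6.77), in the labelled-knockout library and 15 counts, or 0.958 CPM (0.536 to 1.58), in the labelled-wild-type library. These intervals do not overlap, and the level was 5.85-fold higher in the labelled-knockout library (3.39 to 10.8). It nevertheless stayed a weakly expressed gene, with 2.21 FPKM in the labelled-knockout library and 0.380 FPKM in the labelled-wild-type library, which was rank 9377 by FPKM in the labelled-knockout library and rank 12807 in the labelled-wild-type library. The mean count of Lcn2 was 60.5, and weakly expressed genes passed the rule as higher more often. The share higher was 6.54% of all measured genes, against 3.47% of those with a mean count of at least 100. Of the 12668 measured genes, 12560 had a lower ratio than Lcn2. In the authors' deposited table its log2 fold change was 2.54 with an adjusted p of 0.000882, from an unstated tool that had to assume a spread, and 2.21% of 18843 genes in that table had an adjusted p under 0.05. In a bulk library, more cells with a transcript and more transcript per cell cannot be told apart.

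Regulators of iron genes, some of them known drivers of Lcn2, were set beside it. Their list held no NF-kappaB subunit gene, and whether any of them acted on Lcn2 in these cells was not tested. IkappaB-zeta, the nuclear cofactor encoded by Nfkbiz, stood at 129 FPKM in the labelled-knockout library and 135 FPKM in the labelled-wild-type library, a ratio of 0.960. Of 10 measured genes in a list of iron gene regulators, 2 passed the rule as higher, none as lower, and 8 did not pass, at a median log2 ratio of -0.05, beside 6.54% of all measured genes higher. The 2 belong to the C/EBP family. Another of that family, Cebpb, a known driver of Lcn2 named after its values were seen, was not past the rule. Cebpb had 3559 counts and 129 FPKM in the labelled-knockout library and 3038 counts and 134 FPKM in the labelled-wild-type library (ratio 0.969). Tmem189 lies over 20.7% of the Cebpb exon length on the opposite strand. Cebpe, which governs granule genes of maturing neutrophils, had 227 counts in the labelled-knockout library and 22 in the labelled-wild-type library, 8.54-fold higher (5.50 to 13.9). Cebpd, an acute-phase regulator, had 1623 counts in the labelled-knockout library and 609 in the labelled-wild-type library, 2.20-fold higher (2.01 to 2.42), and Spidr lies over part of its exons on the opposite strand.

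Sequence before the RefSeq start of Lcn2 is shown because it is the gene furthest from 1, and that of Slc11a1 because it is the furthest the other way. The windows are the 250 bases before the RefSeq start on GRCm38.p6, and that of Lcn2 lies inside the gene as GENCODE M21 places it. The part outside annotated UTRs is given, 5′ to 3′ on the gene's strand, at chr2:32387798-32387989 (Lcn2, minus strand) and chr1:74374953-74375194 (Slc11a1, plus strand). GENCODE M21 starts Lcn2 further upstream, at 32388252, and 139 of the 192 bases shown, the capitals among them, lie in a coding exon of that longer transcript, whereas none of the 242 bases shown for Slc11a1 lies in an exon of that gene. Capitals mark the letters TTNNGNAA, a loose C/EBP core, on either strand.
Lcn2: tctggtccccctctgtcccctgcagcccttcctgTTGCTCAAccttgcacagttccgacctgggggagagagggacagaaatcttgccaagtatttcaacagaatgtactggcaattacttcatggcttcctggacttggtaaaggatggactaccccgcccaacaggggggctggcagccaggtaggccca
Slc11a1: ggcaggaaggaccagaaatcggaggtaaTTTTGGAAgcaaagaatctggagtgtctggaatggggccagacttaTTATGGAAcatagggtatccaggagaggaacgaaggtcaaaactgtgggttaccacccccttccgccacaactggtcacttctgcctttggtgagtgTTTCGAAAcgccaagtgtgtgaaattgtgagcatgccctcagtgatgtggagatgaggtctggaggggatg
Lcn2 had 1 match and Slc11a1 had 3, and 36.8% of 32851 RefSeq windows of 250 bases hold at least 1. The letters GGGANNNNCC, a loose NF-kappaB form that 17.6% of windows hold, were in neither window. These are matches of letters, not binding sites.

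Lcn2 is also a granule gene of neutrophils, so the markers of that cell were read beside it. Of 13 neutrophil markers, 12 were below the minimum count in these libraries, 5 of them at 0 in both. The others below the minimum, named after their counts were seen, ran in both directions. Prtn3 had 11 counts in the labelled-knockout library and 3 in the labelled-wild-type library, and Elane had 3 in the labelled-knockout library and 0 in the labelled-wild-type library. Ngp and Ly6g each had 0 counts in the labelled-knockout library and 2 in the labelled-wild-type library, and Cxcr2, Camp and Ltf had 4, 2 and 1 counts in each library. The measured marker was Csf3r, the receptor of granulocyte colony-stimulating factor, which was lower in the labelled-knockout library (944 counts, against 1662 in the labelled-wild-type library, ratio 0.470). Summed, the list stood at 51.0 CPM in the labelled-knockout library and 107 CPM in the labelled-wild-type library, nearly all of it Csf3r. The siderophore receptor gene Slc22a17, the highest of the 4 siderophore genes by mean FPKM of the libraries though below Lcn2 in the labelled-knockout library, had 144 counts in the labelled-knockout library and 99 in the labelled-wild-type library, a ratio of 1.20 that was not past the rule. Macrophage markers were well represented, with 8 of 10 measured, Cd14 at 922 FPKM in the labelled-knockout library and 579 FPKM in the labelled-wild-type library. Of these 8, 1 was higher (Lyz2), 1 was lower (Adgre1) and 6 did not pass the rule.

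Slc11a1 and Slc40a1, which move metal out of the phagosome and out of the cell, stood lower together in the labelled-knockout library. Slc11a1 (ENSMUSG00000026177, GRCm38 chromosome 1, 74375195 to 74386062, plus strand), the NRAMP1 metal transporter of the phagosome, had 405 counts, or 21.4 CPM (19.4 to 23.6), in the labelled-knockout library and 785 counts, or 50.1 CPM (46.7 to 53.8), in the labelled-wild-type library. It was 2.34-fold lower in the labelled-knockout library (2.08 to 2.65), and 320 of the 12668 measured genes had a lower ratio. Slc40a1 (ENSMUSG00000025993, GRCm38 chromosome 1, 45908068 to 45926523, minus strand), the sole known iron exporter of mammalian cells, had 571 counts, or 30.2 CPM (27.7 to 32.7), in the labelled-knockout library and 967 counts, or 61.8 CPM (57.9 to 65.8), in the labelled-wild-type library. It was 2.05-fold lower (1.84 to 2.27), close to the 2-fold limit, which its interval crosses. The authors' deposited table gave adjusted p-values of 0.119 for Slc11a1 and 0.270 for Slc40a1. At a mean count of 100 or more, which both genes had, 9411 genes were measured, and of these 1.71% were lower and 3.47% higher past the rule. None of the exons of either gene overlapped another gene in GENCODE M21.

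Of the rest of the export and phagosome list, Cp was measured and 4 genes were below the minimum count. Cp, the gene of the ferroxidase ceruloplasmin that works with ferroportin, was named after its values were seen and had 117 counts in the labelled-knockout library and 187 in the labelled-wild-type library, a ratio of 0.518 that missed the 2-fold limit. All 3 measured genes of this list of 7 had ratios below 1, at a median log2 ratio of -1.03. The 2 past the rule are Slc11a1 and Slc40a1, already given above, and the list was chosen with earlier results known. Of all measured genes, 3.62% were lower past the rule. The hepcidin gene Hamp, whose product removes ferroportin from the cell surface, had 0 counts in the labelled-knockout library and 2 in the labelled-wild-type library, and was named after these counts were seen.

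**Figure D2:**
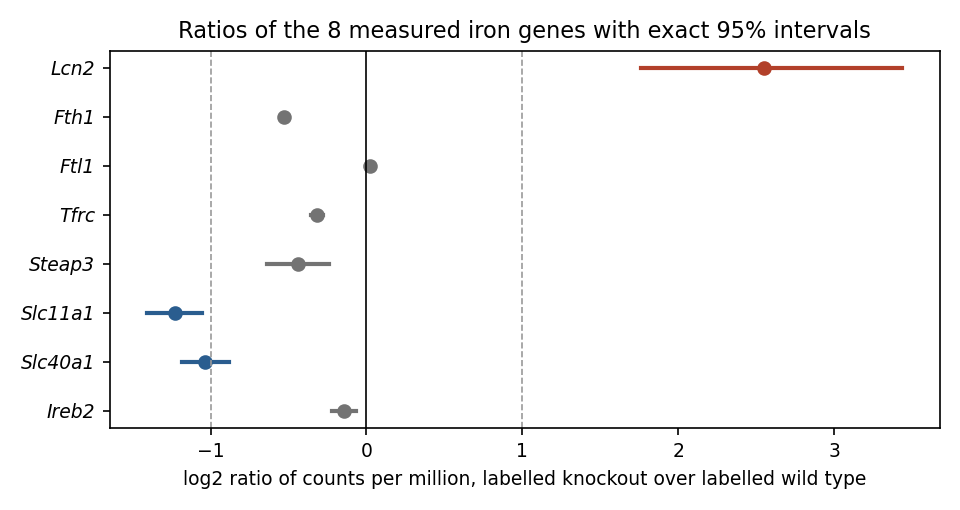
Ratios of the 8 measured iron genes on the log2 scale (labelled knockout divided by labelled wild type) with exact 95% intervals as bars and the 2-fold limits as dashed lines. Lcn2 lies above the upper limit, Slc11a1 lies below the lower limit with its whole interval, and the Slc40a1 interval crosses that limit.

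Ferritin was by far the most abundant iron gene product, and its subunits differed unequally between the libraries. Fth1, the heavy subunit with ferroxidase activity (ENSMUSG00000024661, GRCm38 chromosome 19, 9982703 to 9985092), had 75685 counts, 3999 CPM (3970 to 4027), in the labelled-knockout library and 90329 counts, 5768 CPM (5731 to 5806), in the labelled-wild-type library. It ranked 2 by FPKM in both libraries, with 4775 FPKM in the labelled-knockout library and 6931 FPKM in the labelled-wild-type library. The ratio was 0.693 (0.687 to 0.700), not past the size rule, although 11.4% of measured genes had a lower ratio. Ftl1, the light subunit that promotes the iron core (ENSMUSG00000050708, GRCm38 chromosome 7, 45457944 to 45459884), had 33771 counts and 1377 FPKM in the labelled-knockout library and 27508 counts and 1364 FPKM in the labelled-wild-type library, a ratio of 1.02 (0.9996 to 1.03).

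The heavy-to-light quotient of FPKM, which does not depend on the scaling of the libraries, was 3.47 in the labelled-knockout library and 5.08 in the labelled-wild-type library. Fth1 took 69.1% of the ferritin counts (exact binomial interval 68.9 to 69.4) in the labelled-knockout library and 76.7% (76.4 to 76.9) in the labelled-wild-type library. Together the pair took 0.575% of all counts in the labelled-knockout library and 0.757% in the labelled-wild-type library. The Ftl1 value is uncertain, because 78.9% of the 50-base words in its longest GENCODE M21 transcript also occur in other genes, most of all in Ftl1-ps1. How the authors' counting treated such reads is not stated in the labels. The 15 genes that share words with Ftl1 held 939 counts in the labelled-knockout library and 456 in the labelled-wild-type library, and adding them to Ftl1 gave a ratio of 1.03. For Fth1 2.88% of words were shared. That share is of a GENCODE M21 transcript of 2062 bases, whereas the deposited gene length of Fth1 is 866, so it need not hold for the gene as counted. Other genes cover 34.6% of the Ftl1 exon length in all. The largest part, 26.5%, lies under antisense Gm10252, which had 26 counts in the labelled-knockout library and 20 in the labelled-wild-type library. Counts of what covers the rest were not examined.

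Of the genes of iron entry and reduction, none of 5 measured members of a list of 12 was past the size rule. Tfrc, the transferrin receptor and the carrier of the 5 hairpins shown above (ENSMUSG00000022797, GRCm38 chromosome 16, 32608920 to 32632794), had 10343 counts, 546 CPM (536 to 557), in the labelled-knockout library and 10659 counts, 681 CPM (668 to 694), in the labelled-wild-type library. Its ratio was 0.803 (0.781 to 0.825). Steap3, the endosomal ferrireductase best known from red cell precursors (ENSMUSG00000026389, GRCm38 chromosome 1, 120190757 to 120272705), had 396 counts and 3.79 FPKM in the labelled-knockout library and 445 counts and 5.17 FPKM in the labelled-wild-type library, with a ratio of 0.736 (0.641 to 0.845). Both intervals exclude 1 by counting error, and both ratios are within 2-fold. The remaining measured genes of the list went the other way, with 3 ratios above 1, among them Slc11a2, the endosomal DMT1 transporter, at 1.37 (named after its value was seen).

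Steap4, a metalloreductase known for its induction by inflammatory cytokines in fat cells and liver (ENSMUSG00000012428, GRCm38 chromosome 5, 7960457 to 7982213), had 0 counts in both libraries. A count of 0 allows up to 3 counts, or 0.158 CPM in the labelled-knockout library and 0.192 CPM in the labelled-wild-type library, so no ratio can be given. Steap1 and Steap2, named after their counts were seen, were also at 0 in both.

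Ireb2 encodes iron regulatory protein 2, which binds the hairpins when iron is scarce (ENSMUSG00000032293, GRCm38 chromosome 9, 54863789 to 54912530). It had 2964 counts, 157 CPM (151 to 162), in the labelled-knockout library and 2711 counts, 173 CPM (167 to 180), in the labelled-wild-type library, a ratio of 0.905 (0.858 to 0.953). None of the 5 genes of the iron regulatory list was past the rule, and their median log2 ratio was -0.26. Skp1a, a subunit of the ubiquitin ligase that removes this protein and the most abundant of the list, stood at 66.6 FPKM in the labelled-knockout library and 81.3 FPKM in the labelled-wild-type library, a ratio of 0.825. The 4 genes with a UTR hairpin match thus had ratios of 0.489 (Slc40a1), 0.693 (Fth1), 0.803 (Tfrc) and 1.02 (Ftl1). Protein levels were not analysed here.

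**Figure D3:**
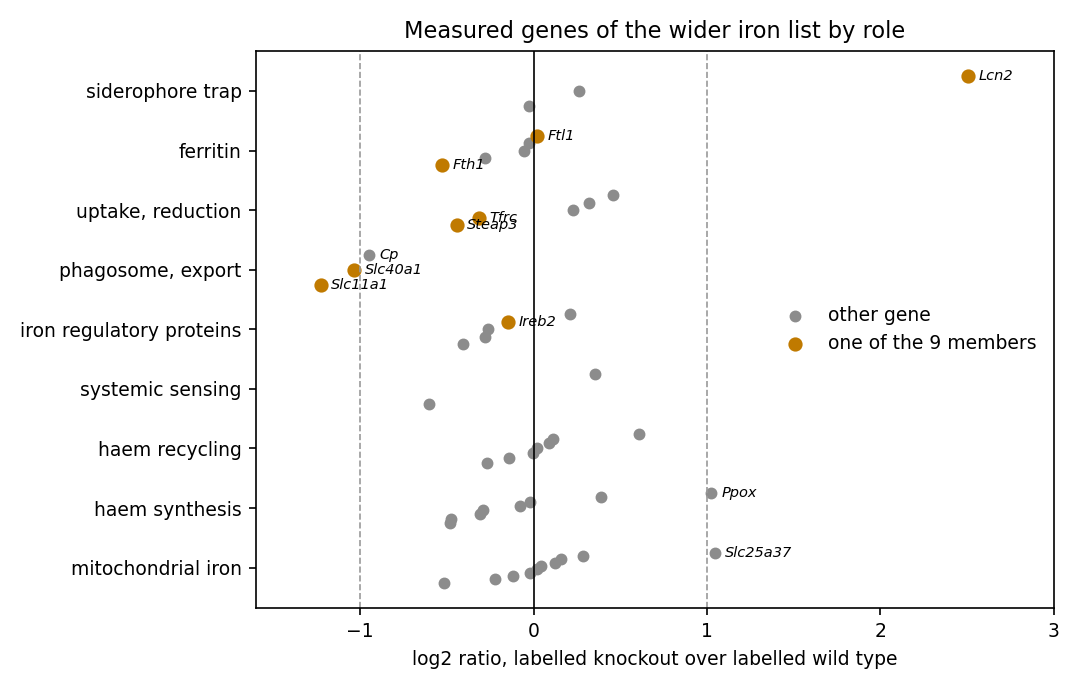
Each point is a measured gene of the wider iron list, placed by its log2 ratio (labelled knockout divided by labelled wild type) and by its role, with the 9 members in orange and the 2-fold limits dashed. The 3 measured phagosome and export genes all lie to the left of 0, and Lcn2, Slc25a37 and Ppox lie to the right of the upper limit.

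The wider iron list held 70 symbols, of which 69 were in the table and 48 were measured. Of these, 3 were higher past the rule, 2 were lower and 43 were not past it. That is a share of 10.4%, beside 10.2% of all measured genes, but the list includes the 9 genes. Without them 40 genes were measured, of which 2 were higher past the rule and 0 were lower, a share of 5%. The median log2 ratio of the whole list was -0.02, against 0.02 for all measured genes. The genes past the rule that are not among the 9 were Slc25a37 and Ppox. Slc25a37 encodes mitoferrin-1, which carries iron into mitochondria, and had 3665 counts in the labelled-knockout library and 1468 in the labelled-wild-type library, 2.07-fold higher (1.94 to 2.20). Ppox, an enzyme of haem synthesis, had 291 counts in the labelled-knockout library and 118 in the labelled-wild-type library, 2.04-fold higher (1.64 to 2.55). B4galt3 lies over 17.5% of the Ppox exon length on the opposite strand, and since the strand setting of the counting is not stated, its part in the Ppox value was not tested.

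None of 7 measured haem recycling genes was past the rule (median log2 ratio 0.02), and Hmox1, the enzyme that frees iron from haem, stood at 145 FPKM in the labelled-knockout library and 144 FPKM in the labelled-wild-type library. Of 8 measured haem synthesis genes, 1 passed the rule as higher, none as lower, and 7 did not pass (median -0.18), with the abundant Alad at 25.5 FPKM in the labelled-knockout library and 35.8 FPKM in the labelled-wild-type library. Of 10 mitochondrial iron genes, 1 passed as higher, none as lower, and 9 did not pass (median 0.03), with the scaffold gene Iscu at 41.6 FPKM in the labelled-knockout library and 41.3 FPKM in the labelled-wild-type library. Of 2 measured genes of systemic iron sensing, neither was past the rule, and Hfe had 215 counts in the labelled-knockout library and 139 in the labelled-wild-type library.

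**Figure D4:**
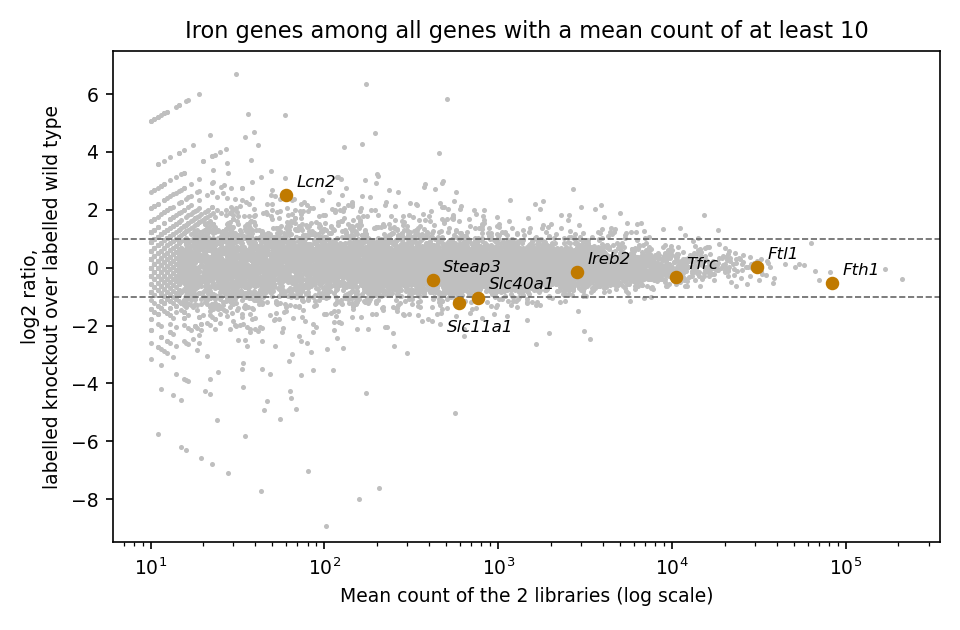
Log2 ratio (labelled knockout divided by labelled wild type) against the mean count of the libraries (log scale) for the 12668 measured genes (grey), with the 8 measured iron genes in orange and the 2-fold limits dashed. Lcn2 sits above the upper limit at a low mean count, Slc11a1 lies below the lower limit, Slc40a1 sits just past it, and Fth1 is among the most abundant genes.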

How the data were processed

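The authors deposited 1 table of genes on GRCm38 (mm10). The raw counts per gene are the authors' own, and the submitters' processing notes name featureCounts 1.5.0-p3, HISAT2 2.0.5 and CASAVA 1.8 without a role for each. The strand setting and annotation release are not stated there. The authors also deposited FPKM, a signal of counts scaled between the libraries, log2 fold changes and p-values. The ratios here were computed from the counts, with TMM scaling by edgeR 4.0.16 in R 4.3.3, with intervals at 95% from scipy 1.17.1, and with 0.5 counts added for log2 ratios. No count model was fitted, since each group has 1 library and so no spread. Named genes were the 9 members, list genes past the size rule and the most abundant of each iron, regulator, macrophage and neutrophil list by mean FPKM. Other genes are marked as named after their values were seen. The members and lists were chosen with earlier results of these data known. T cell, B cell, fibroblast, epithelial and erythroid markers had at most 4 counts per gene. Overlaps came from GENCODE M21. Windows before a RefSeq start were present for 8 of the 9 genes (not Slc40a1). Alternatives were other scalings (DESeq2 1.42.0 size factors among them), filters, fold limits, added counts and FPKM. The procedure was tested on simulated data that held counting error only, so that test does not cover spread between cultures or PCR copies.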

Additional observations from a re-analysis of the deposited data

How the results depend on the processing

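No call among the 9 genes changed under DESeq2 size factors, total counts, upper-quartile factors, protein-coding genes alone, no count filter or a 1.5-fold limit. Scaling moved all log2 ratios by -0.02 to -0.01. Lcn2 was lost with a minimum mean count of 100, which left 0 members higher, since its mean count was 60.5. A 4-fold limit left 0 members lower, and asking for the whole interval beyond 2-fold left 1 (Slc11a1). In the wider iron list that 4-fold limit left 1 gene higher and 0 lower, and that interval left 1 higher and 1 lower. Leaving out genes overlapped over at least 10% of their exons, chosen after seeing the data, left 2 higher and 2 lower. Over all genes 327 were higher and 161 lower with a minimum of 100 counts, 1634 and 1021 at 1.5-fold, 218 and 128 at 4-fold, and 353 and 185 with the interval beyond 2-fold. On log2 of FPKM plus 1, which shrinks weak genes, Lcn2 stood at 1.22, against 2.51 from counts. Slc40a1 stood at -0.87 on that scale, which is within 2-fold, against -1.03 from counts. No paired analysis was possible because each group has 1 library. At 15 counts the Lcn2 level is imprecise.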

Other observations

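The chromosome around each gene was read next, over measured genes within 1 Mb. Around Lcn2, 38 neighbours had a median log2 ratio of -0.02, with none higher past the size rule and 2 lower, against 2.51 for Lcn2. Around Slc11a1, 27 neighbours had a median of 0.07, with 2 higher and none lower, against -1.23 for Slc11a1. Slc40a1 had only 3 measured neighbours, with a median of -0.19, 1 higher and none lower, against -1.03 for Slc40a1. Around Fth1, 27 neighbours had a median of -0.10 and none was past the rule. Ftl1 had 72 neighbours with a median of 0.19, 6 higher and 3 lower, against 0.02 for Ftl1. Steap3 had 9 with a median of 0.42, 2 higher and none lower, against -0.44 for Steap3. Tfrc had 29 (median -0.10) and Steap4 had 9 (median -0.26), none of them past the rule. Ireb2 had 14 with a median of -0.04, none higher and 1 lower.

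Ppox lies on chromosome 1 in a stretch where 37 of 40 measured neighbours had a ratio above 1, with a median log2 ratio of 0.84 beside 1.03 for Ppox. Around Slc25a37, 12 neighbours had a median of 0.11, beside 1.05 for Slc25a37. Around Cp, all 8 measured neighbours had a ratio below 1, with a median of -0.46 beside -0.95 for Cp. The part of a shared chromosomal shift in these values was not tested.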
